A study of Mus musculus with 6 samples.

Results

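The genes that make, break down and read out cyclic AMP (cAMP) and cyclic GMP (cGMP) were examined in the aorta of mice lacking Prdm16 in smooth muscle. They were all protein-coding genes whose symbol marks them as an adenylyl cyclase (Adcy), a soluble or membrane guanylyl cyclase (Gucy1, Gucy2), a natriuretic peptide receptor (Npr), a phosphodiesterase (Pde), or a subunit of protein kinase A or G (Prkar, Prkac, Prkg). This rule, which used names and no measured value, found 54 of the 21936 protein-coding genes in a table of 55487 rows. They comprised 10 adenylyl cyclases, 12 guanylyl cyclases and natriuretic peptide receptors, 24 phosphodiesterases and 8 kinase subunits.

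RNA was sequenced from the aortas of 6 male mice, 3 per group, after removal of the adventitia. All mice were on a C57BL/6 background and carried Myh11-CreERT2, a tamoxifen-inducible Cre recombinase driven by the promoter of the smooth muscle myosin gene Myh11 and integrated on the Y chromosome, which limits it to males. The knockout mice (iSM KO) had floxed Prdm16 alleles (Prdm16 F/F) and the controls were wild-type littermates (Prdm16 W/W). Both groups received 1 mg of tamoxifen a day for 10 days from 8 weeks of age, then 2 weeks of washout and a further 60 days, so the tamoxifen and the Cre were common to both.

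The libraries held 24911584 to 40460411 estimated reads assigned to genes. Values are given as CPM, the reads of a gene relative to the TMM-scaled total of its library, and levels of different genes are compared only after division by transcript length, as CPM per kilobase (FPKM). Prdm16 itself fell from 195 ± 24.4 to 95.3 ± 16.5 CPM (SD, n = 3 each), a log2 fold change of -1.03 ± 0.14 (SE) with adjusted p = 0.00265 in the quasi-likelihood test of edgeR (p adjusted by Benjamini and Hochberg's method, called FDR below). All fold changes below are iSM KO over control from that test. Per the study, Cre removes a single floxed exon of Prdm16 in smooth muscle. The CPM of Prdm16 count the whole gene in all cells of the tissue, so they do not measure the extent of that deletion. Prdm16 kept an FDR under 0.05 without any 1 library, although its log2 fold change without control 2 was -0.92 and without iSM KO 3 also -0.92, inside the 2-fold threshold. The 10 smooth muscle markers summed to 25733 to 30378 CPM in controls and 27513 to 30305 CPM in iSM KO, ranges that overlap. Of these markers 8 lay above 0 in log2 fold change and 2 rose at an edgeR FDR under 0.05, Des (1.24 ± 0.18) and Myocd (0.65 ± 0.12).

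Cyclic nucleotides set the tone of the vessel wall. Nitric oxide activates soluble guanylyl cyclase and natriuretic peptides activate receptor guanylyl cyclases, and the cGMP they make opens the way to relaxation through protein kinase G; receptors coupled to the stimulatory G protein act through adenylyl cyclase, cAMP and protein kinase A. Phosphodiesterases hydrolyse the nucleotides, with isoforms that prefer cAMP, that prefer cGMP, or that take both, so the mix of isoforms decides how the pathways act on each other.

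Of the 54 genes, 43 had enough reads to be tested (a count over 10 in every library of at least 1 group), 41 of them in both groups. Gucy2g passed this filter only through iSM KO and Pde6b only through the controls. The other 11 were Adcy10, Gucy1b2, Gucy2c, Gucy2d, Gucy2e, Gucy2f, Pde4c, Pde6a, Pde6c, Pde6g and Pde11a, none with more than 12 reads in any library. Gucy2e and Gucy2f had 0 reads in all 6, which allows up to 0.0735 to 0.126 CPM per library at a floor of 3 counts, for counting error only.

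Of the 43, 14 changed at an FDR under 0.05, 10 upward and 4 downward, against 7.56% of the 16565 genes tested (4.26% upward and 3.3% downward). With a fold change over 2 as well, 5 were called (4 up and 1 down), where 2.78% of all genes were called, 1.4% up and 1.38% down. The median log2 fold change was 0.17 over the 43 genes and -0.01 over all genes, and 30 of the 43 lay above 0 against 47.6% of all genes. In 18 genes every iSM KO library lay above every control and in 6 every one lay below, where 27.9% of all genes (15% and 13%) showed such a gap. Gucy2g, which passed the count filter only through iSM KO, is among the 18 and among the 30. The count of 14 dropped to 9 without control 2, to 8 without iSM KO 1, to 8 without iSM KO 2 and to 9 without iSM KO 3, and the count of 5 dropped to 3 without control 2, iSM KO 1 or iSM KO 2. In whole tissue, fewer cells of a type and less RNA per cell cannot be told apart.

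**Figure D1:**
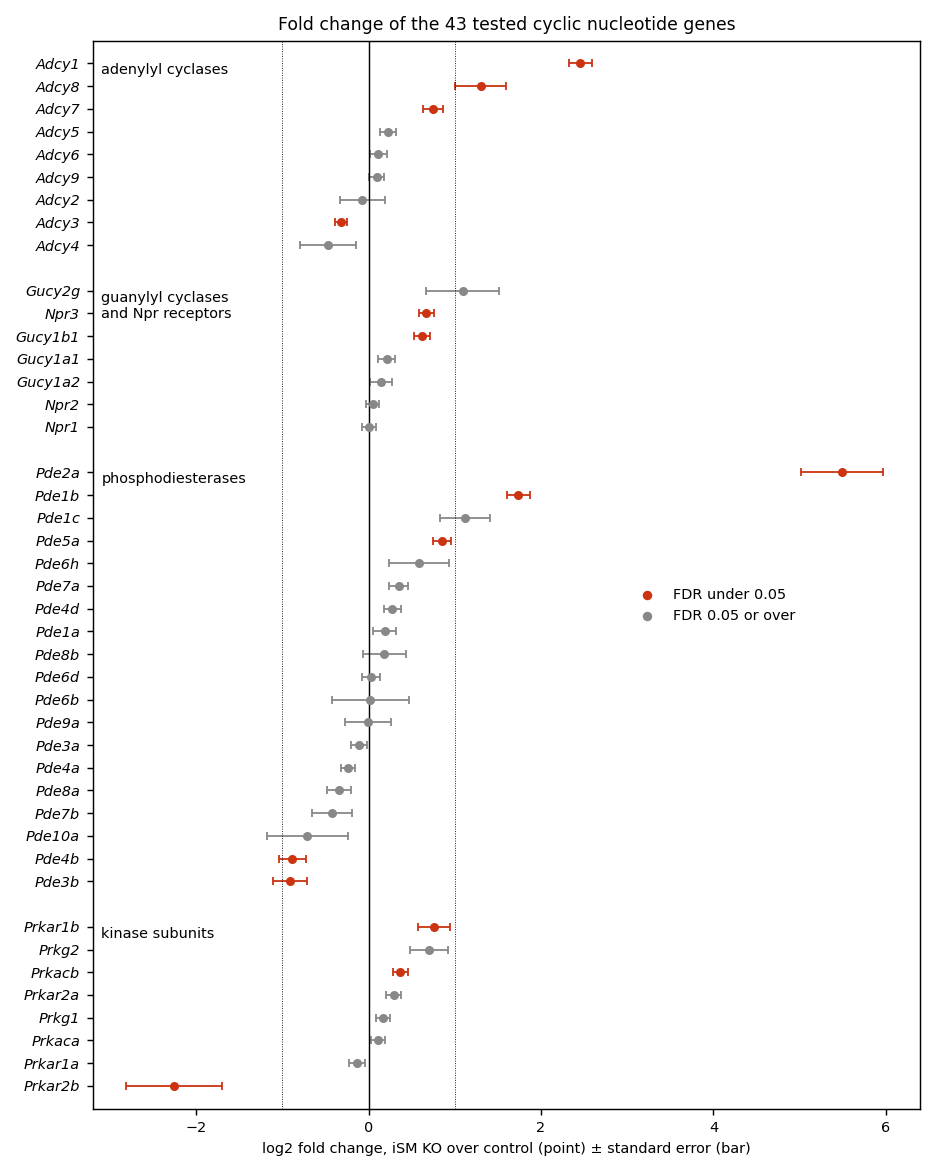
Log2 fold change, iSM KO over control (x axis), with its standard error (bar) for the 43 tested genes, grouped by family; red marks an FDR under 0.05 and dotted lines a 2-fold change. Pde2a (5.49), Adcy1 (2.45) and Pde1b (1.74) lie farthest to the right and Prkar2b (-2.26) farthest to the left.

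The 5 called genes were Adcy1 (chr11:7063489-7178506, plus strand), Adcy8 (chr15:64697084-64922296, minus strand), Pde1b (chr15:103503034-103530052, plus strand), Pde2a (chr7:101421691-101512827, plus strand) and Prkar2b (chr12:31958476-32061296, minus strand), in GRCm38 coordinates. For 4 of them a RefSeq promoter window was at hand (43 of the 54 genes matched, with 83 windows). The 250 bases before the start site nearest to the annotated gene start are shown so that the upstream sequence can be read beside the values. They lie at chr11:7063183-7063432 for Adcy1, chr15:103502784-103503033 for Pde1b, chr7:101421441-101421690 for Pde2a and, on the minus strand, chr12:32061278-32061527 for Prkar2b (build GRCm38.p6, written 5′ to 3′ on the strand of the gene). Capitals mark GC boxes, GGGCGG or its reverse complement.
Adcy1: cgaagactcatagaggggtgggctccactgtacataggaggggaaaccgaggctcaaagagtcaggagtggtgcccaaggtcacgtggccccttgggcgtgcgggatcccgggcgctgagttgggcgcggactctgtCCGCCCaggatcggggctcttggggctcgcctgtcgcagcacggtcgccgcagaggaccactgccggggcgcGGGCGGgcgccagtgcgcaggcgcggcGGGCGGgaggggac
Pde1b: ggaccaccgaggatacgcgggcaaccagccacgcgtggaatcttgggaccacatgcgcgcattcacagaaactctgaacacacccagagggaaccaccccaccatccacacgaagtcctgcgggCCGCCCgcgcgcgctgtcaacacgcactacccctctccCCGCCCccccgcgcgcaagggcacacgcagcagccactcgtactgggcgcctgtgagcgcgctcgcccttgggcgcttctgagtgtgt
Pde2a: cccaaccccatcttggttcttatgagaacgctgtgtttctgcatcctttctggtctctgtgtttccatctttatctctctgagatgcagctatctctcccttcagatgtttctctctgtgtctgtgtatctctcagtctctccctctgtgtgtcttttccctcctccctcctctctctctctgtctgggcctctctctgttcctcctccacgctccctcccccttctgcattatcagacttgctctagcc
Prkar2b: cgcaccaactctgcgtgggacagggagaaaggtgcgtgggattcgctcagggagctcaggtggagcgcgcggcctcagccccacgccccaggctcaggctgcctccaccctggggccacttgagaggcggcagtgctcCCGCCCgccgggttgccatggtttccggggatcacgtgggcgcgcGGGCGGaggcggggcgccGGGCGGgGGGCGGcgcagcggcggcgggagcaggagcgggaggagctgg
The Adcy1, Pde1b and Prkar2b sequences were rich in G and C (71.2%, 67.2% and 75.6%) and held 3, 2 and 4 GC boxes, while the Pde2a sequence was 50.8% G and C and held none. Pde2a has 5 start sites in the table, and the 250 bases before another of them (chr7:101451002-101451251) were 68.0% G and C with 3 GC boxes. Over windows of 300 bases (250 before and 50 after the start), searched on both strands, a GC box stood in 42.2% of the 83 windows of these genes and in 35.7% of all 32851 windows. The core of the cAMP response element, TGACG, stood in 24.1% of the windows of these genes and 20.8% of all, and the full palindrome TGACGTCA, which contains that core, in 2 of the 83, which are overlapping windows of Prkar1a, and 1.79% of all. The TATA box letters TATAAA stood in 6.02% and 13.6%, and the CArG box bound by serum response factor in 0 of 83 and 1.63%. These are matches of letters and not binding sites.

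Among the adenylyl cyclases, 9 of 10 were tested, 3 rose, 1 fell and 5 did not pass the test. Adcy1, a calcium and calmodulin-stimulated cyclase best known from brain, was measured at 9.51, 9.64 and 12.4 CPM in the controls and 50.2, 63.5 and 58.6 CPM in iSM KO. Every iSM KO library lay at more than 4 times the highest control. The log2 fold change was 2.45 ± 0.13 with FDR = 2.64e-05 in edgeR's quasi-likelihood test, and it lay between 2.37 and 2.58 whichever library was left out.

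Adcy8, the other strongly calmodulin-stimulated isoform, was scarce. Its levels were 0.656, 0.572 and 0.921 CPM in the controls and 1.49, 2.12 and 1.61 CPM in iSM KO, from 22, 22 and 22 reads in the controls and 61, 74 and 59 in iSM KO. The groups did not overlap and the log2 fold change was 1.30 ± 0.29 with FDR = 0.0299 by edgeR. That call held without control 3 (edgeR FDR = 0.0402) and was lost without control 1 (0.0802), control 2 (0.0719), iSM KO 1 (0.0627), iSM KO 2 (0.139) or iSM KO 3 (0.0543).

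Adcy3, a calmodulin-responsive cyclase known from olfactory cilia, moved the other way. It was read at 56.8, 56.5 and 58.0 CPM in the controls and 46.7, 45.7 and 44.7 CPM in iSM KO. The spread within each group was under 1 CPM (SD 0.814 and 0.962), so a log2 fold change of only -0.32 ± 0.07 gave FDR = 0.0211 by edgeR, which rose to 0.0772, 0.115 and 0.0746 without iSM KO 1, 2 and 3.

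Adcy7, a cyclase stimulated by G protein beta-gamma subunits, was higher in iSM KO. The controls gave 120.9, 93.7 and 115 CPM and the iSM KO libraries 159.9, 196 and 198 CPM, without overlap. Its log2 fold change was 0.75 ± 0.12 with edgeR FDR = 0.00677, and it stayed under 0.05 without any 1 library. The related Adcy2 and Adcy4, both also of the beta-gamma group, had log2 fold changes of -0.07 and -0.47 and did not pass (edgeR FDR = 0.900 and 0.433).

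The main cyclase of the aorta was Adcy5, a calcium-inhibited isoform known from heart and striatum, with 175 ± 7.24 FPKM in controls (SD, n = 3). It supplied 71.2% of the summed per-length level of the family in controls and 70.1% in iSM KO. Its CPM were 1170, 1248 and 1265 in controls and 1398, 1542 and 1364 in iSM KO, which do not overlap, but the log2 fold change of 0.22 ± 0.10 did not pass (edgeR FDR = 0.209). Adcy6, its closest relative, had 146, 173 and 164 CPM in controls and 190.1, 161 and 172 CPM in iSM KO. Those ranges overlap (log2 fold change 0.11, edgeR FDR = 0.523).

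Set on the per-length scale, the rise of Adcy1 took it from 0.859 to 4.69 FPKM, from 0.348% to 1.60% of the family. The 10 cyclases together summed to 246 ± 9.21 FPKM in controls and 292 ± 13.6 FPKM in iSM KO (SD, n = 3). The ranges of the sums (236 to 253 and 284 to 308) did not overlap. Most of that difference lay in Adcy5 (175 and 205 FPKM), which did not pass the test, with less in Adcy7 (18.5 and 31.0 FPKM) and Adcy1. Adcy2, Adcy3, Adcy4 and Adcy10 were lower.

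Of the guanylyl cyclases and natriuretic peptide receptors, 7 of 12 were tested and 2 rose, with none lower. Gucy1b1, the beta subunit that carries the haem of the nitric oxide receptor, had 155, 142 and 169 CPM in controls. In iSM KO it had 252, 246 and 221 CPM, all above the controls. The log2 fold change was 0.62 ± 0.09 with edgeR FDR = 0.00452, and it stayed under 0.05 without any 1 library.

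Its partner Gucy1a1, the main alpha subunit, was at 46.1 FPKM in controls beside 48.3 FPKM for Gucy1b1, with overlapping ranges. In iSM KO the levels were 53.3 FPKM for Gucy1a1 and 74.4 FPKM for Gucy1b1, and the ranges did not overlap. With the union of exons as length, the controls gave 31.1 FPKM for Gucy1a1 and 39.6 FPKM for Gucy1b1 and did not overlap either, so the likeness of the control levels depended on the length used. Gucy1a1 itself did not pass the test (log2 fold change 0.21 ± 0.10, edgeR FDR = 0.260). The 4 soluble cyclase subunits summed to 97.2 ± 4.37 FPKM in controls and 131 ± 10.3 FPKM in iSM KO, without overlap.

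Npr3, the clearance receptor that removes natriuretic peptides and has no cyclase domain, also rose. It had 18.6, 16.8 and 17.8 CPM in controls and 26.0, 29.6 and 28.9 CPM in iSM KO, without overlap (log2 fold change 0.67 ± 0.09, edgeR FDR = 0.00293). That call held without any 1 library.

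Npr1, the receptor cyclase for the atrial and B-type peptides and the gene of this family with the highest per-length level in controls, differed little. In iSM KO it was at 68.3 FPKM, below Gucy1b1. Its CPM were 252, 293 and 284 in controls and 279, 277 and 276 in iSM KO, with a log2 fold change of 0.01 ± 0.08 (edgeR FDR = 0.974). Npr2, the receptor for the C-type peptide, had a log2 fold change of 0.05 ± 0.07 (edgeR FDR = 0.738).

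**Figure D2:**
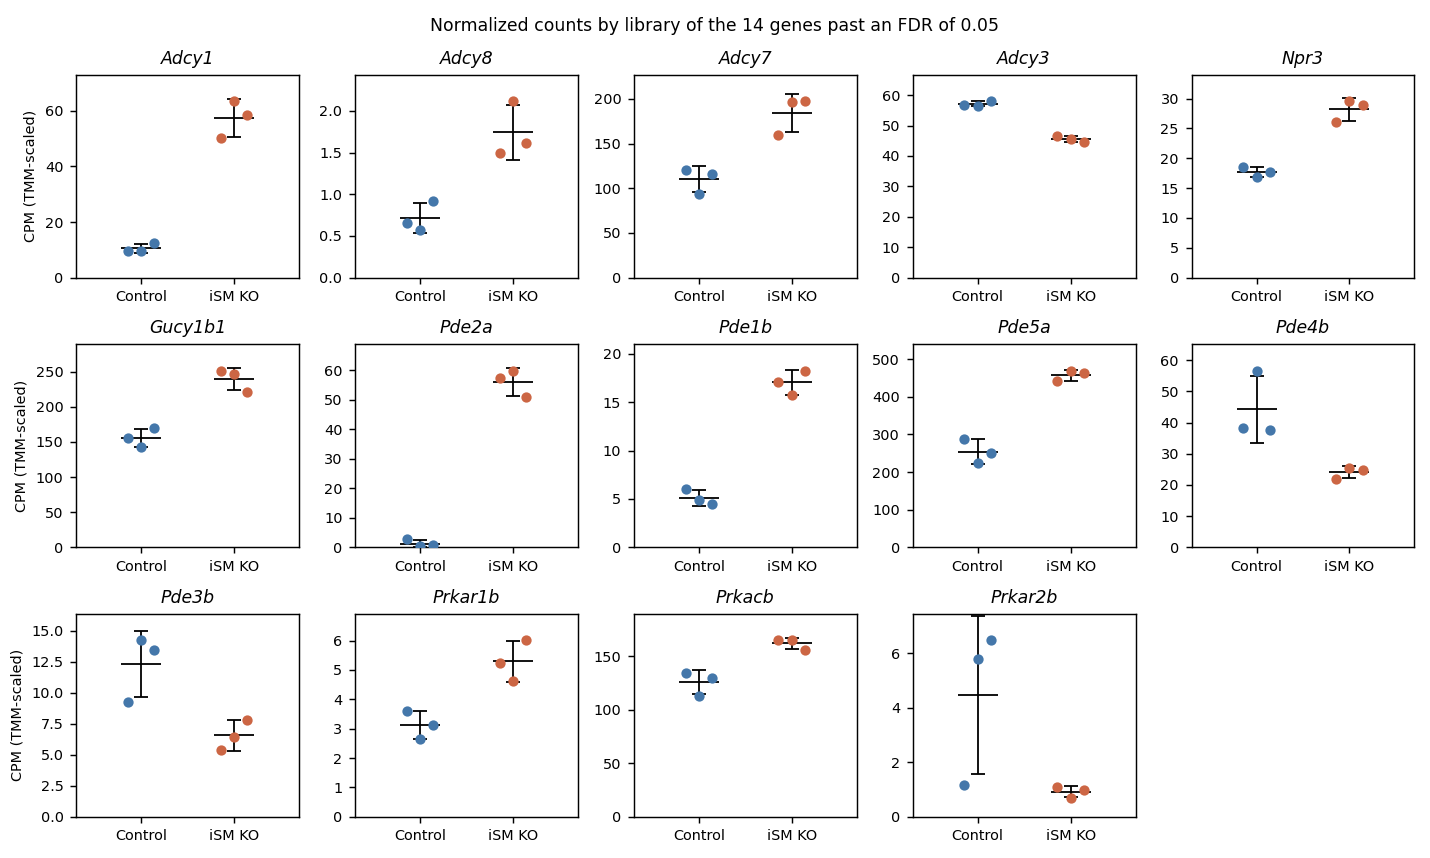
CPM of the 14 genes with an FDR under 0.05 (y axis, from 0) in each of the 3 control (blue) and 3 iSM KO (orange) libraries, with the mean (horizontal line) and SD (whisker). The groups do not overlap in any panel, but in Prkar2b control 1 (1.16 CPM) lies next to the iSM KO libraries.

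Of 19 tested phosphodiesterases 3 rose, 2 fell and 14 did not pass. Pde2a, which hydrolyses both nucleotides and is activated when cGMP binds its regulatory domain, was nearly absent from the controls at 2.68, 0.338 and 0.670 CPM. In iSM KO it reached 57.2, 59.9 and 50.9 CPM. The difference was far beyond the spread of either group, with a log2 fold change of 5.49 ± 0.48 and edgeR FDR = 3.25e-04.

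The size of that change depended on how reads in its locus were divided. A read-through gene model, Gm45837 (chr7:101410886-101512819, plus strand), begins inside the upstream neighbour Arap1 and shares exons with Pde2a. It was listed at 0, 102 and 37 reads in controls and 285, 132 and 207 in iSM KO, so control 1 had all its reads under Pde2a while controls 2 and 3 had most under Gm45837. Summed over both rows, a step chosen after these counts were seen, the locus had 2.68, 2.99 and 2.26 CPM in controls and 64.2, 63.7 and 56.6 CPM in iSM KO. The controls then lay close together, and the log2 fold change was 4.52 ± 0.12 (edgeR FDR = 2.86e-07). Without control 1 the unsummed value was 6.89, and the FDR of Pde2a stayed at or under 0.00297 in every alternative. Arap1 itself was lower in iSM KO (log2 fold change -0.43 ± 0.11, edgeR FDR = 0.0413).

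Pde1b, a calmodulin-dependent isoform that takes both nucleotides, had 6.02, 4.83 and 4.44 CPM in controls and 17.1, 15.8 and 18.3 CPM in iSM KO. Every iSM KO library lay at more than 2 times the highest control, with a log2 fold change of 1.74 ± 0.14 and edgeR FDR = 1.75e-04. The other isoforms of that calmodulin-dependent group did not pass in this fit, although Pde1c passed in an alternative fit with the replicate number as a block. Pde1c had 17.3, 7.17 and 8.04 CPM in controls and 25.7, 21.0 and 24.0 CPM in iSM KO (log2 fold change 1.12 ± 0.29, edgeR FDR = 0.0507), and was named here after its values were seen. Pde1a had a log2 fold change of 0.19 ± 0.13 (edgeR FDR = 0.446).

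Pde5a, the cGMP-specific isoform that sildenafil inhibits, had 288, 223 and 251 CPM in controls. It had 442, 470.0 and 462 CPM in iSM KO, all well above the controls (log2 fold change 0.85 ± 0.10, edgeR FDR = 0.00178). The isoform of the highest per-length level in controls was Pde3a, the cGMP-inhibited enzyme of cardiac and vascular muscle, at 506, 539 and 588 CPM in controls and 503, 487 and 519.8 CPM in iSM KO, which overlap (log2 fold change -0.11 ± 0.09, edgeR FDR = 0.497). Per length, Pde3a had 44.3 and Pde5a 33.4 FPKM in controls, and Pde3a 40.9 and Pde5a 60.2 FPKM in iSM KO, so their order turned round.

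Pde4b and Pde3b were lower in iSM KO. Pde4b, a cAMP-specific isoform, had 38.3, 56.7 and 37.6 CPM in controls and 21.8, 25.4 and 24.7 CPM in iSM KO. The groups did not overlap and control 2 was the highest library (log2 fold change -0.88 ± 0.16, edgeR FDR = 0.0107, under 0.05 without any 1 library). Pde3b, the isoform of adipocytes and liver through which insulin lowers cAMP, had 9.24, 14.2 and 13.4 CPM in controls and 5.37, 6.47 and 7.82 CPM in iSM KO (log2 fold change -0.91 ± 0.19, edgeR FDR = 0.0243). That call held without control 1 or iSM KO 3 and was lost without control 2 (0.0612), control 3 (0.0845), iSM KO 1 (0.0841) or iSM KO 2 (0.0971). Of the other cAMP-specific isoforms, Pde4a was at log2 fold change -0.24 and Pde4d at 0.27, neither past the threshold (edgeR FDR = 0.115 and 0.149).

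By substrate, the summed per-length level of the cGMP-specific isoforms was 34.0 ± 4.27 FPKM in controls and 60.8 ± 1.90 FPKM in iSM KO (SD, n = 3). That of the cAMP-specific isoforms was 37.4 ± 2.65 and 31.5 ± 1.57 FPKM, and that of the dual isoforms 54.5 ± 3.98 and 68.0 ± 1.39 FPKM. None of these pairs of ranges overlapped. Pde5a (33.4 and 60.2 FPKM) made up nearly all of the cGMP-specific sums. Pde2a (0.292 and 13.3 FPKM) accounted for nearly all of the difference between the dual sums. Among the other dual isoforms, Pde1a, Pde1b and Pde1c were higher and Pde3a, Pde3b, Pde10a and Pde11a lower. With exon unions as lengths the cAMP-specific isoforms summed to 20.2 FPKM in controls and 17.3 FPKM in iSM KO and the cGMP-specific ones to 26.2 and 46.9 FPKM, so which of the sums was higher in controls depended on the length used, while the direction of each difference between groups did not. Pde5a made up 24.5% of the whole family in controls and 35.2% in iSM KO, Pde3a 32.4% and 23.9%, and Pde2a 0.213% and 7.76%. The control share of Pde2a was 0.0871% without control 1 and 0.457% with the reads of Gm45837 added. These are levels of RNA and not of enzyme activity.

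**Figure D3:**
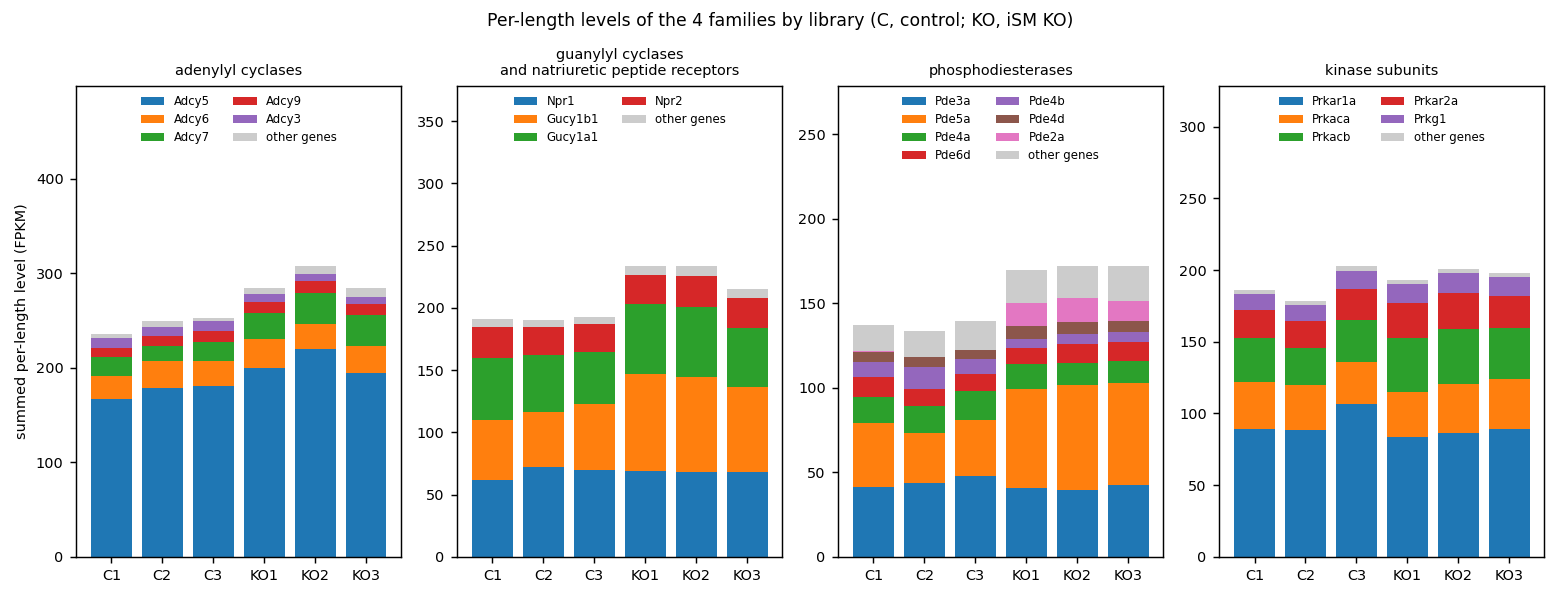
Summed per-length level (FPKM, y axis) of each family in the 3 control (C) and 3 iSM KO libraries, stacked by gene, with genes under 4% of the family in both groups pooled in grey. The cyclase and phosphodiesterase stacks are taller in every iSM KO library, Adcy5 fills most of the adenylyl cyclase stack in both groups, and the kinase stacks overlap between groups.

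All 8 kinase subunits were tested, of which 2 rose, 1 fell and 5 did not pass. Prkacb, a catalytic subunit of protein kinase A, had 134, 113 and 129.7 CPM in controls and 165, 165 and 156 CPM in iSM KO, without overlap. The log2 fold change of 0.37 ± 0.09 had edgeR FDR = 0.0348. It stayed under 0.05 only without control 1 (0.0306) and lay between 0.0521 and 0.161 without each of the other 5 libraries. Prkaca, the other catalytic subunit, had 75.1, 70.2 and 66.8 CPM in controls and 71.3, 78.2 and 79.8 CPM in iSM KO, which overlap (log2 fold change 0.11 ± 0.08, edgeR FDR = 0.452).

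Among the regulatory subunits, Prkar1a had the highest per-length level of all kinase subunits. It was read at 313, 312 and 373 CPM in controls and 293, 303 and 312 CPM in iSM KO, and did not pass (log2 fold change -0.14 ± 0.09, edgeR FDR = 0.437). Prkar1b, known from neurons, had 3.61, 2.65 and 3.14 CPM in controls and 5.24, 4.61 and 6.02 CPM in iSM KO, without overlap (log2 fold change 0.76 ± 0.18, edgeR FDR = 0.0391). It stayed under 0.05 only without control 1 (0.0398) and lay between 0.0806 and 0.116 without each of the other 5.

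Prkar2b, the regulatory subunit known from fat and brain, was the only called gene that fell. It had 1.16, 5.80 and 6.49 CPM in controls and 1.10, 0.687 and 0.984 CPM in iSM KO. Control 1 lay just above the highest iSM KO library, and the other 2 controls at more than 5 times that level. The log2 fold change was -2.26 ± 0.55 with edgeR FDR = 0.0410. The FDR was 0.00123 without control 1, was over 0.05 without each of the other 5 libraries (0.0846 to 0.157), and ran from 5.42e-05 with DESeq2 to 0.174 with limma-voom over the alternatives. Of the kinases that cGMP activates, Prkg1 had a log2 fold change of 0.17 ± 0.08 and Prkg2 0.70 ± 0.22, and neither passed (edgeR FDR = 0.252 and 0.0958). The summed level of the kinase subunits was 189 ± 12.5 FPKM in controls and 197 ± 3.74 FPKM in iSM KO, with overlapping ranges.

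Adipocyte markers were lower in iSM KO as well. Of 11 listed, 9 were tested, 6 fell and Pparg rose, and none was at 0 in all libraries. All 11 summed to 520 to 678 CPM in controls and 478 to 570.0 CPM in iSM KO, but Plin4 alone gave 442 to 545 CPM across the 6 libraries. The other 10 summed to 43.1, 218 and 112 CPM in controls and 24.5, 25.0 and 29.4 CPM in iSM KO. Adipoq, which encodes adiponectin, had 1.40, 11.1 and 4.61 CPM in controls and 0.319, 0.172 and 0.629 CPM in iSM KO. Control 1 thus had the least adipocyte RNA of the controls and also the least Prkar2b and Pde3b, and the part of this RNA in those results was not tested. Of 6 brown adipocyte markers 3 were tested and 2 fell, with a summed level of 6.35 to 53.1 CPM in controls and 3.92 to 6.10 CPM in iSM KO. The endothelial list summed to 534 to 1092 CPM in controls and 283 to 828 CPM in iSM KO, with 0 of 10 markers past the threshold (1 of 10 at an unadjusted p under 0.05 by edgeR), and within each group its libraries ranked in the order of Adcy4. Macrophage (37.5 to 40.9 against 15.0 to 44.5 CPM) and fibroblast sums (213 to 429 against 154 to 236 CPM) overlapped too, with 0 of 8 (2 of 8 at an unadjusted p under 0.05 by edgeR) and 1 of 9 tested markers past the threshold. All 9 fibroblast markers had a log2 fold change below 0 (median -0.86), and all 9 had an unadjusted p under 0.05, as did 22.1% of all genes tested. Cardiomyocyte markers summed to 117 to 144 CPM in controls and 155 to 209 CPM in iSM KO, without overlap. Ryr2 alone gave 111 to 142 and 152 to 205 CPM. Of 5 tested, 2 rose (Ryr2 and Mybpc3, the latter with 9, 1 and 0 reads in controls) and 3 lay below 0. Skeletal muscle markers summed to 3.14 to 4.29 and 2.32 to 2.89 CPM, without overlap, with 0 of 2 past the threshold. Nerve sums overlapped, as did T and B cell sums. The part of these cell types in the results was not tested.

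**Figure D4:**
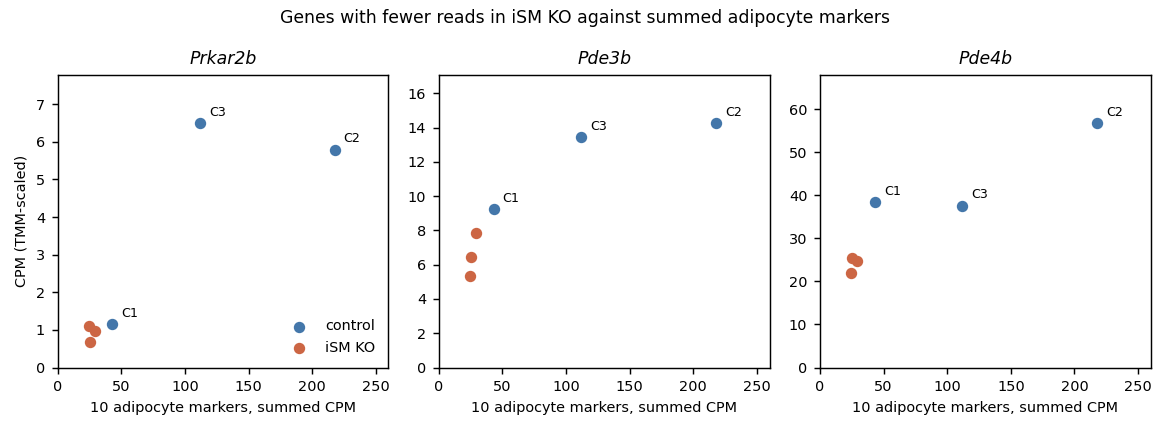
CPM of Prkar2b, Pde3b and Pde4b (y axes, from 0) against the summed CPM of 10 adipocyte markers other than Plin4 (x axis) in the 3 control (blue, labelled C1 to C3) and 3 iSM KO (orange) libraries. Control 1 (43.1 CPM of markers) is closest to the iSM KO libraries for Prkar2b and Pde3b, while for Pde4b it stands with control 3.

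Other genes of the pathway were read from a list of 119, written with the study's tables known and therefore no independent evidence. Of 87 tested, 12 rose and 9 fell at an FDR under 0.05 (24.1%, beside 7.56% of all genes), and 11 were called (6 up, 5 down; 12.6%, beside 2.78% of all genes). Their median log2 fold change was -0.02. Of the 12 that rose, 4, Htr1d, Adra2b and Corin among them, passed the count filter only through iSM KO. They could enter the test only by being higher there. All 4 were among the 6 called up, and the other 7 called genes passed through both groups. Upstream, 11 receptors coupled to the inhibitory G protein were tested, of which 3 were higher, 2 of them tested only through iSM KO, and 1 fell. Npy4r, a receptor for pancreatic polypeptide, had 3.19, 3.17 and 2.81 CPM in controls and 45.0, 45.6 and 44.3 CPM in iSM KO (log2 fold change 3.87 ± 0.10). Htr1d, a serotonin receptor, had 0.0894, 0.0260 and 0.0419 CPM in controls and 4.68, 6.35 and 3.72 CPM in iSM KO. Adra2b, an alpha-2 adrenoceptor, had 0 to 0.0596 CPM in controls and 0.602 to 0.916 CPM in iSM KO. Both were at the floor of 3 counts or under it in every control. Adora1, the A1 adenosine receptor, fell (log2 fold change -2.69 ± 0.25), with 5.63, 7.17 and 5.03 CPM in controls and 0.686, 0.916 and 1.18 CPM in iSM KO. Of 13 tested receptors coupled to the stimulatory G protein, Drd1, a dopamine receptor, rose (log2 fold change 1.78 ± 0.20) and the other 12 did not pass.

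Downstream, the list of genes that the cAMP-responsive factor CREB is known to induce had 14 tested, with 4 lower and 1 higher. Fos had 50.2, 213 and 39.3 CPM in controls and 13.8, 14.4 and 13.9 CPM in iSM KO, Dusp1 had a log2 fold change of -1.28 ± 0.22, Nr4a2 -1.42 ± 0.27 and Pck1 -3.43 ± 0.74. Control 2 was the highest library for all of these, as for Pde4b. Pck1, which is also abundant in fat, had 2.24, 28.5 and 19.3 CPM in controls, lowest in control 1 like the adipocyte markers. The part of adipocyte RNA in the fall of Pck1 was not tested. Ppargc1a, a coactivator of mitochondrial genes, rose (log2 fold change 0.78 ± 0.16). These genes answer to many other signals, and the part of cAMP or CREB in their changes was not tested. None of 8 CREB factors and coactivators passed, which concerns their RNA and not their activity. Of these 8, 2 had an unadjusted p under 0.05 by edgeR, as did 22.1% of all genes.

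Among 11 tested anchoring proteins, which hold protein kinase A and phosphodiesterases at sites in the cell, Pde4dip (0.89 ± 0.10), Akap5 (0.89 ± 0.16) and Akap6 (0.43 ± 0.07) rose and Akap12 fell (-0.37 ± 0.08; log2 fold changes). Pde4dip, or myomegalin, was read at 359, 359 and 359 CPM in controls and 701, 723 and 577 CPM in iSM KO. Of 9 tested kinase substrates of contraction, Mrvi1, the protein kinase G substrate at the calcium store, rose (0.46 ± 0.11) and Hspb6, a small heat shock protein phosphorylated in relaxation, fell (-0.57 ± 0.11). Corin, the protease that activates the atrial natriuretic peptide precursor, had 0.537, 0.234 and 0.712 CPM in controls, from 18, 9 and 17 reads, and 4.73, 3.92 and 3.80 CPM in iSM KO (log2 fold change 3.12 ± 0.34). Corin passed the count filter only through iSM KO. Gnao1, an inhibitory G protein subunit, rose (0.64 ± 0.13). Abcc4, which exports cyclic nucleotides, fell (-0.92 ± 0.19), and so did the kinase inhibitor Pkig (-0.30 ± 0.07). All had an edgeR FDR under 0.05.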

How the data were processed

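The authors removed the adventitial layer of the mouse aorta, extracted RNA, depleted ribosomal RNA and sequenced paired ends. Per the labels and the study's methods they demultiplexed with bcl2fastq and quantified genes with Illumina DRAGEN against mm10 (versions, strand setting and the treatment of multiply mapped reads are not given in the sources used here). The deposited values are estimated counts per gene, of which 10.9% to 12.2% per library were not whole, and they were rounded here. No columns of the authors' own comparisons were used.

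Genes with a count over 10 in all libraries of at least 1 group were tested with edgeR 4.0.16 (quasi-likelihood test, TMM scaling, R 4.3.3) on 3 against 3 libraries, with Benjamini-Hochberg adjustment over all 16565 genes. The standard error is the log2 fold change over the square root of F. Called means an FDR under 0.05 and a fold change over 2. DESeq2 1.42.0, voom in limma 3.58.1, other scalings, filters and left-out libraries were alternatives. The edgeR, DESeq2 and voom fits were tested on simulated counts. An exact permutation test of 3 against 3 cannot go below p = 0.1, so no single value was tested that way. FPKM used the longest GENCODE M21 transcript. Promoter windows came from RefSeq.

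Values in every library were given for the genes of the 4 families past the FDR and the 2 of each family with the highest FPKM. Pathway genes past the FDR were named with a fold change, some with values in every library, except a pathway gene that is not reported here. The genes, gene lists and markers were chosen with earlier results of these data known. No 2 libraries agreed within sampling noise: the chi-square per degree of freedom was 12.2 to 19.5 between iSM KO libraries, 48.3 to 71.5 between controls and 52.1 to 82.1 across groups.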

Additional observations from a re-analysis of the deposited data

How the results depend on the processing

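Of the 14 genes past an FDR of 0.05, 8 (Adcy1, Adcy7, Gucy1b1, Npr3, Pde1b, Pde2a, Pde4b and Pde5a) stayed past it in all 6 fits without 1 library, and 6 did not in at least 1. Over 210 values of these genes under an alternative, 177 kept direction and side of the threshold, 33 were no longer past it and 0 turned direction. These alternatives include summing rows that share a symbol and summing Pde2a with Gm45837. Both hardly touched the genes other than Pde2a (Adcy1 stayed at 2.45 in both), so their agreement there was all but fixed. The count of 14 lay between 8 and 14 without 1 library, and the count of 5 called genes between 3 and 6. Over all genes, 1252 past the FDR became 516 to 1397 and 461 called became 290 to 528, and the 11 pathway genes became 6 to 14. With DESeq2, scaling from protein-coding genes or no low count filter, 15 genes passed the FDR (11 up and 4 down). Over all genes these fits gave 1711, 1270 and 1777. With limma-voom 14 passed (11 up and 3 down), and 1244 over all genes. Called genes numbered 5 with DESeq2 and 6 with protein-coding scaling or no filter. The limma-voom calls were 5 up and 0 down. Testing against a 2-fold change (edgeR's glmTreat) left 3 genes (Adcy1, Pde1b and Pde2a), 95 over all genes and 5 of the pathway list, since that test asks for more than a change from 0. Prkar2b was lost with limma-voom, the only such loss among 126 values without a left-out library apart from the block below, and the cause was not tested. Npr1, near 0 throughout, ran from -0.050 without control 1 to 0.052 without control 2. With exon unions as lengths, 9 of the 10 genes of highest level were the same.

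Same-numbered control and iSM KO libraries did not deviate together (correlations of -0.132, -0.0455 and -0.107). Differently numbered ones correlated at 0.000817 to 0.114. The labels do not say whether the numbers mean more than the mouse, and so few libraries cannot settle it. No pairing was used in the main fit. A fit with the replicate number as a block gave 10 genes past the FDR and 4 called, and 775 past the FDR over all genes. It lost Adcy3, Adcy8, Prkacb, Prkar1b and Prkar2b and added Pde1c.

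With 3 mice per group, genes of low count such as Adcy8 rest on few reads.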
